A study of Macaca mulatta with 6 samples.

Results

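CC chemokines are small secreted proteins that draw leukocytes along a concentration gradient, and each acts through 1 or more G protein-coupled CC receptors. The genes CCL1, CCL2, CCL3, CCL5, CCL7, CCL17, CCL20 and CCL22 were taken by symbol from the count table of a series on TET2 in blood colonies. Rows were found for 6 of these 8 among 32386 rows, and CCL3 and CCL17 were not analysed here. CCL2 and CCL7 are ligands of CCR2, the receptor by which monocytes leave the bone marrow, CCL1 is the ligand of CCR8, and CCL22 is a ligand of CCR4. CCL20 is the ligand of CCR6, and CCL5 is a ligand of CCR1 and CCR3 among others. Myeloid cells make many of these proteins when they are activated, and their genes lie largely in clusters that arose by duplication.

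Levels are given in CPM, counts scaled by each library's total and its TMM factor, which corrects for differences in make-up. The libraries came from rhesus macaque granulocyte-macrophage colonies (CFU-GM), 3 labelled wild type (WT) and 3 labelled TET2+/-, the uniallelic mutant group (UA). TET2 encodes an enzyme that oxidizes methylated cytosine in DNA. All colonies were grown in semi-solid medium for 14 days. Each is described as grown from a single CD34+ bone marrow cell, which would make each library 1 clone. Whether the 3 UA libraries come from separate clones was not tested. The marrow was taken 15 months after an autologous graft of CRISPR/Cas9-treated CD34+ cells. Genotypes were called on DNA of the same colonies, and loss of function of the mutant allele is a prediction. Whether a WT colony came from a treated cell or from one the host had kept was not given in the sources used here, nor were the number and age of the animals. P-values thus cover only the spread among these libraries, part of which may be technical.

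Total counts ranged from 10574104 to 25485143 in WT and from 6334264 to 17684447 in UA. WT replicate 1 stood apart, with a chi-square per degree of freedom of 82.4 and 79.0 against the other WT libraries, which had 12.1 between them. This chi-square was taken on raw counts and totals, so it also rises with depth. On CPM, the median absolute log2 ratio was 0.476 and 0.461 for WT replicate 1 against the other WT libraries. It was 0.244 between those and 0.172 to 0.184 between UA libraries. The UA libraries were closer to each other, at a chi-square of 4.29 to 5.21 per degree of freedom. For the chemokine genes and pathway lists, results are also given with the 3 UA libraries summed to 1 sample where that changes a call. The calls of most cell type markers and of the neighbouring genes were not checked in that setting. TET2 had 1736, 971 and 1296 counts in the WT libraries (in replicate order) and 4387, 2336 and 1554 in the UA libraries, higher by 1.30 on the log2 scale (SE 0.16, adjusted p = 3.93e-05 by edgeR). A count over the whole gene cannot check a mutation in 1 allele, so the genotypes rest on the labels. MPO, a peroxidase of granulocyte precursors, and LYZ, lysozyme of granulocytes and monocytes, were well above 0 in every library, at means of 810 and 464 CPM in WT and 16743 and 7600 CPM in UA.

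The question was how these chemokine transcripts differed between the UA-labelled and the WT-labelled colonies. CCL1, CCL2, CCL7 and CCL22 were far lower in UA, CCL20 was lower by a smaller margin that 10 of 17 other settings did not call, and CCL5 was higher. In all, 5 of the 6 measured genes were called lower and 1 higher at an edgeR adjusted p under 0.05, in a comparison that called 66% of 13768 tested genes, 31.4% lower and 34.6% higher. Their median log2 fold change (UA minus WT) was -5.77, and that of all tested genes 0.12. With a call and a log2 fold change below -3 there were 4 of the 6, against 1.49% of all tested genes, and above 3 there was 1, against 7.87%. The groups did not overlap for 5 of the 6, against 73.2% of all tested genes, with UA lower for 4, against 34%, and higher for 1, against 39.2%. CCL7 and CCL22 in UA and CCL5 in WT had fewer than 10 counts in each library. These genes thus passed the filter on low counts through the other group alone, and their calls are no independent support for the count. The chemokine genes were chosen with earlier results of these data known, so the median and the shares above are a description only.

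**Figure D1:**
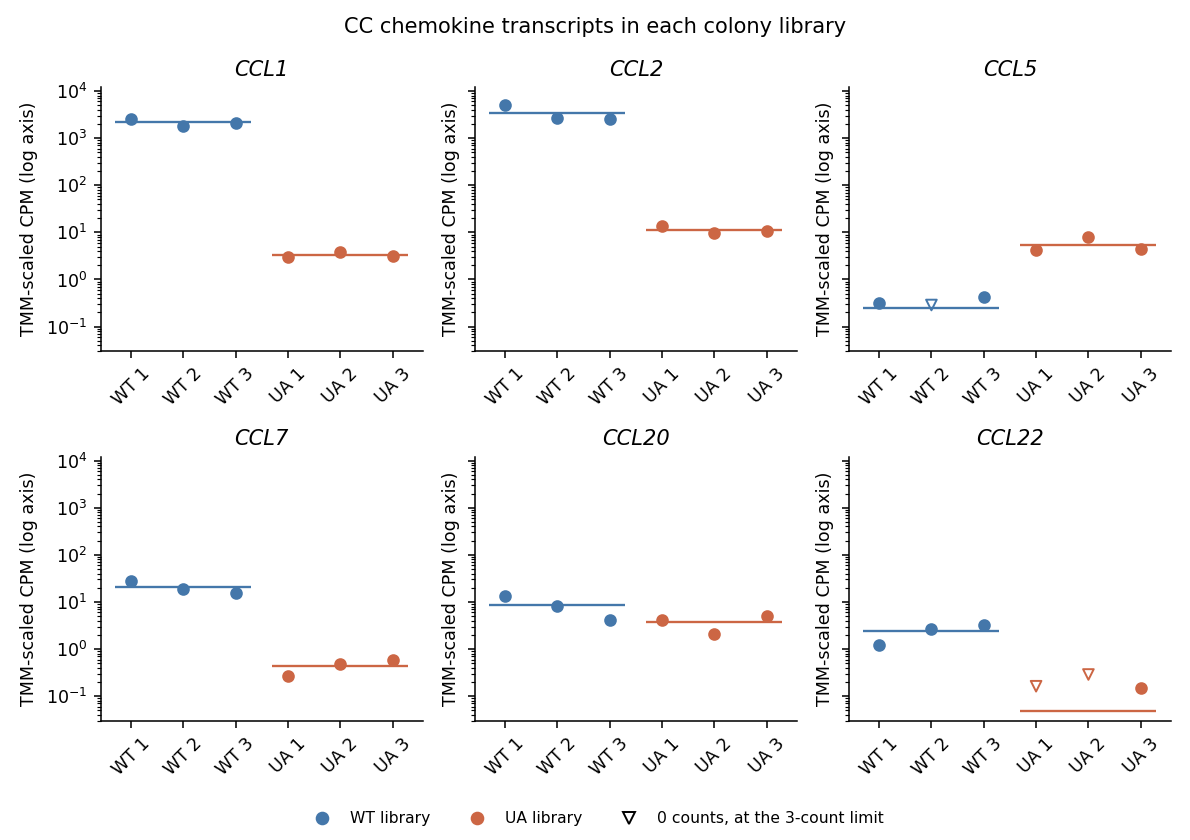
TMM-scaled CPM (log axis) of the 6 measured CC chemokine genes in WT replicates 1 to 3 (blue) and UA replicates 1 to 3 (orange), with the group mean as a line. An open triangle marks 0 counts and is drawn at the CPM of 3 counts; only the CCL20 groups overlap.

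CCL2, which recruits monocytes, had 4963, 2682 and 2554 CPM in WT replicates 1 to 3. In UA replicates 1 to 3 it had 13.4, 9.81 and 10.5 CPM. The lowest WT library thus stood far above the highest UA library, and WT replicate 1 was the highest of all. The log2 fold change was -8.23 (SE 0.34, adjusted p = 4.19e-08 by edgeR), rank 6 from the lowest among all tested genes. Without WT replicate 1 it was -7.82. The gene lies on chromosome 16 from 28231966 to 28234328 by the authors' deposited table, whose header gives no build (the submitters' processing notes list Mmul_8.0.1).

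CCL7, the other CCR2 ligand measured, had 27.2, 18.9 and 15.4 CPM in WT replicates 1 to 3. In UA replicates 1 to 3 it had 0.271, 0.481 and 0.591 CPM, from 5, 5 and 4 counts. The groups did not overlap, and the gene fell by 5.63 on the log2 scale (SE 0.42, adjusted p = 1.60e-06 by edgeR). WT replicate 1 was again the highest library. Within a library, CCL2 had 183, 142 and 166 reads for each CCL7 read in the WT libraries (in replicate order) and 49.4, 20.4 and 17.8 in the UA libraries, so the ratio was lower in all UA libraries, where it rests on 4 or 5 CCL7 counts.

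CCL1, a chemoattractant of CCR8-bearing T cells and monocytes, had 2523, 1829 and 2101 CPM in WT replicates 1 to 3. In UA replicates 1 to 3 it had 2.98, 3.75 and 3.10 CPM, from 55, 39 and 21 counts. No WT library came near a UA library, and the WT libraries varied less than for CCL2, with an SD of 350 against 1355 CPM. Its log2 fold change of -9.36 (SE 0.23, adjusted p = 2.89e-09 by edgeR) had rank 3 from the lowest. The ratio of CCL2 to CCL1 reads was 1.97, 1.47 and 1.22 in the WT libraries (in replicate order) and 4.49, 2.62 and 3.38 in the UA libraries, without overlap. On chromosome 16, the authors' deposited table places CCL1 at 28331546 to 28334332.

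CCL22, which draws CCR4-bearing T cells and is made by dendritic cells and macrophages, had low counts throughout. There were 27, 28 and 38 counts in WT replicates 1 to 3, or 1.23, 2.68 and 3.20 CPM. UA replicates 1 and 2 had 0 counts, which allows up to 0.163 and 0.289 CPM, and UA replicate 3 had 1 count. Here WT replicate 1 was the lowest WT library, the reverse of its place for CCL1, CCL2 and CCL7. The WT to UA ratio of summed counts was 74.9 with a 95% exact counting interval of 13.1 to 2990, which covers counting error only. The fitted log2 fold change was -5.91 (SE 1.11, adjusted p = 0.00074 by edgeR), and -5.06 without UA replicate 1 and -8.11 without UA replicate 3, the last fitted against UA libraries at 0. On chromosome 20, the authors' deposited table places CCL22 at 41570914 to 41576851.

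CCL20, which draws CCR6-bearing lymphocytes and dendritic cells, had 13.5, 8.03 and 4.21 CPM in WT replicates 1 to 3. In UA replicates 1 to 3 it had 4.12, 2.12 and 5.02 CPM. The groups overlapped, because WT replicate 3 lay below UA replicate 3, and WT replicate 1 carried much of the difference. The log2 fold change was -1.22 (SE 0.47, adjusted p = 0.0399 by edgeR). Without WT replicate 1 it was -0.71 (edgeR adjusted p = 0.181), and with the UA libraries summed -1.21 (edgeR adjusted p = 0.17), so the call was lost. It was lost in 10 of 17 other settings, with a negative value in each. On chromosome 12, the authors' deposited table places CCL20 at 110179626 to 110183532.

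CCL5, known from activated T cells, macrophages and platelets, was the one measured gene that rose. It had 7, 0 and 5 counts in WT replicates 1 to 3, or 0.320, 0 and 0.421 CPM, where the 0 allows up to 0.287 CPM. In UA replicates 1 to 3 it had 78, 82 and 30 counts, or 4.23, 7.88 and 4.43 CPM. All UA libraries lay above all WT libraries, and UA replicate 2 was the highest. The log2 fold change was 4.35 (SE 0.73, adjusted p = 0.000348 by edgeR). It was 3.46 with all libraries thinned to the smallest total and 4.98 with limma-voom. On chromosome 16, the authors' deposited table places CCL5 at 29829331 to 29836801.

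**Figure D2:**
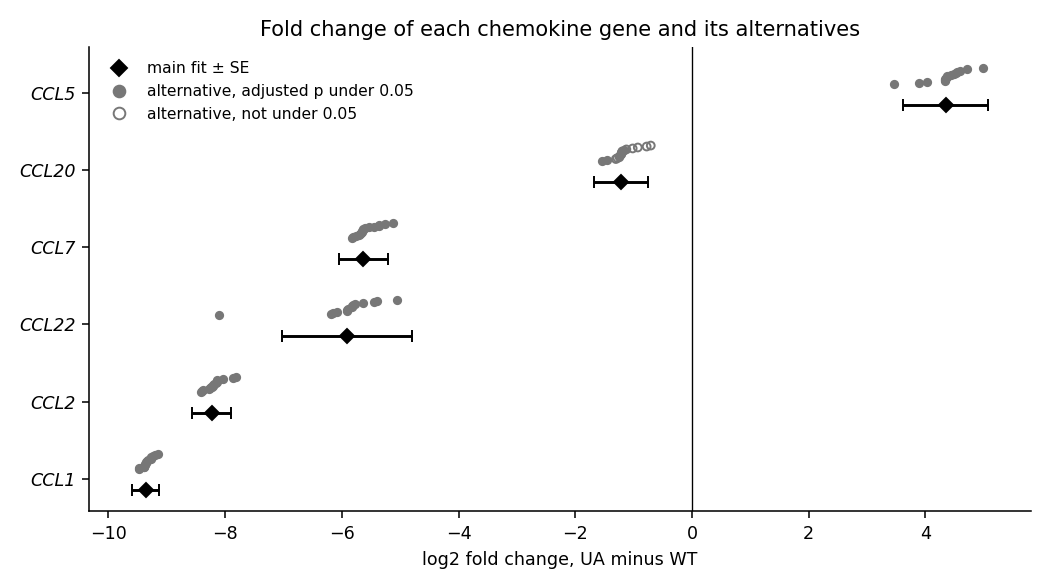
Log2 fold change (UA minus WT) of each measured gene, with the reported value and its SE as a black diamond and bar and each other setting as a grey point, open where the adjusted p was not under 0.05. All points of CCL1, CCL2, CCL7 and CCL22 lie below -5, those of CCL5 above 3, and 10 of the 17 for CCL20 are open.

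Summed over the 6 genes, the WT-labelled libraries held 7529, 4541 and 4679 CPM in replicates 1 to 3 and the UA-labelled ones 25.0, 24.0 and 23.8 CPM. The means were 5583 ± 1687 and 24.3 ± 0.636 CPM (SD, n = 3 each), a 230-fold difference. The make-up of these reads differed too. CCL1 and CCL2 gave 99.4%, 99.3% and 99.5% of the 6 genes' reads in the WT libraries (in replicate order) and 65.5%, 56.4% and 57.1% in the UA libraries. CCL5 gave at most 0.009% in WT and 16.9%, 32.8% and 18.6% in UA. These are shares of reads, which longer transcripts raise, so they are compared between libraries and not between genes.

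Gene order was read from a RefSeq assembly of the rhesus genome that is not the build of the counts and served for names and neighbours alone. There CCL2, CCL7, CCL11, CCL8, CCL13 and CCL1 are consecutive protein-coding genes of chromosome 16. CCL8, a CCR2 ligand too, had 534, 152 and 124 counts in WT and 24, 5 and 9 in UA, and fell by 3.98 on the log2 scale (SE 0.46, adjusted p = 2.82e-05 by edgeR). CCL13 had 32, 8 and 10 counts in WT and 0, 6 and 0 in UA, and CCL11, the eosinophil chemoattractant eotaxin, had 11, 5 and 0 in WT and 0 in each UA library. CCL11 and CCL13 did not pass the filter on low counts, and neither was called without that filter (edgeR adjusted p = 0.0606 and 0.0923) or by DESeq2 (adjusted p = 0.172 and 0.133). The CCL11 groups overlapped. CCL7 and CCL8 passed the filter through WT, where they were high, so the calls in this run of genes are given as values and not as a pattern.

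CCL5 lies further along chromosome 16, followed by CCL16, CCL14, CCL15, CCL23 and CCL18, and these genes went different ways. CCL18, a chemokine of macrophages and dendritic cells, had 20.1, 11.4 and 13.1 CPM in WT and 1.46, 0.577 and 0.443 CPM in UA. It fell to means of 0.828 ± 0.554 CPM from 14.9 ± 4.64 (SD, n = 3 each, edgeR adjusted p = 2.43e-05). It too passed the filter on low counts through WT. CCL15 had a log2 fold change of -0.53 (SE 0.43, adjusted p = 0.297 by edgeR), with overlapping groups. CCL23 had 0 counts in 5 of 6 libraries and 5 in UA replicate 3, and CCL14 and CCL16 had 0 in all. CCL4L1, which lies apart from both groups and is of the CCL4 type, had 270 ± 79.3 CPM in WT and 217 ± 7.64 in UA (SD, n = 3 each), and its log2 fold change of -0.32 (SE 0.19, adjusted p = 0.171 by edgeR) was not called; copies of this gene may share its reads.

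**Figure D3:**
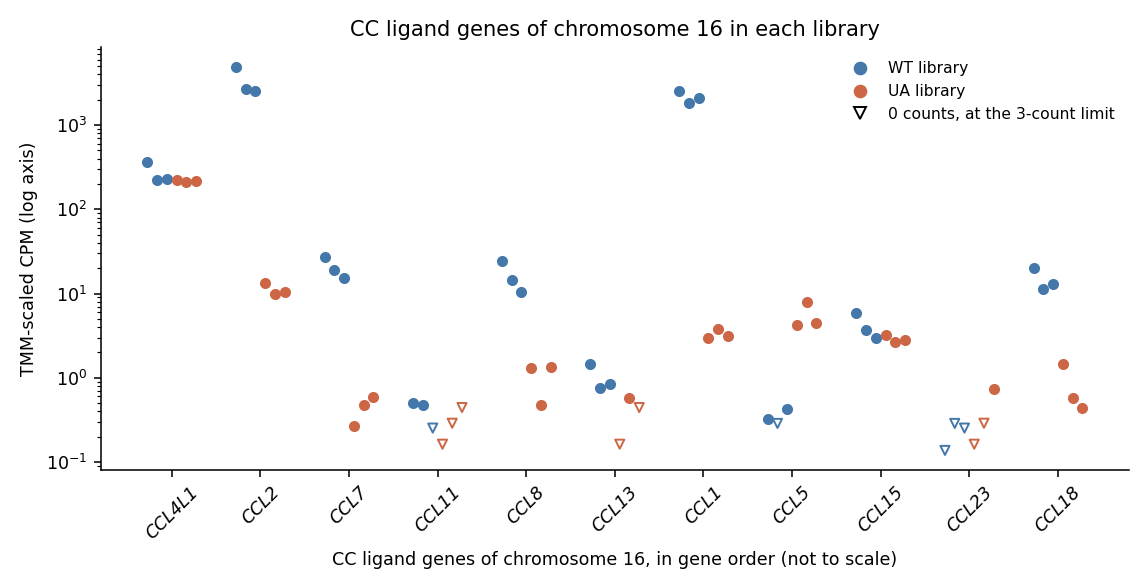
TMM-scaled CPM (log axis) of the CC ligand genes of chromosome 16 with at least 1 count, in RefSeq gene order and not to scale, 1 point for each library (WT blue, UA orange, open triangle for 0 counts at the CPM of 3 counts). The WT points of CCL2, CCL7, CCL8, CCL1 and CCL18 lie above the UA points, those of CCL4L1 and CCL15 overlap, and CCL5 runs the other way.

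Of 18 further CC ligands, 15 had a row and 5 were tested. CCL8 and CCL18 fell, none rose and 3 were not called, where 66% of all tested genes were called. The median log2 fold change of the 5 was -0.53. Besides CCL4L1 and CCL15 the third was CCL25, a thymic and gut chemokine, at 3.38 CPM in WT and 2.27 CPM in UA (edgeR adjusted p = 0.4). CCL14, CCL16, CCL19 and CCL27 had 0 counts in all libraries.

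The nearest named genes on either side, in the authors' deposited table, did not share one direction. They lie 4108 bases (HEATR9) to 223024 bases (TMEM132E) from the chemokine gene. Genes without a named row there may lie between. Before CCL2 lies ASIC2, an ion channel gene, with 1.56 CPM in WT and 1.41 in UA (edgeR adjusted p = 0.9), and after CCL1 lies TMEM132E, which rose by 3.72 on the log2 scale (SE 0.89, adjusted p = 0.00348 by edgeR). RDM1, after CCL5, fell to 3.32 CPM in UA from 13.4 in WT (edgeR adjusted p = 0.000259), and HEATR9 on its other side was not tested. COQ9, a gene of ubiquinone synthesis after CCL22, fell by 1.26 on the log2 scale (SE 0.16, adjusted p = 5.39e-05 by edgeR), while PLLP before it was not tested. DAW1, after CCL20, had 0 counts in WT and 2.30 CPM in UA (edgeR adjusted p = 0.000305), and SLC19A3 before it had 0 counts throughout.

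No CC receptor of the 9 reported here was called. All 9 had a row and 4 were tested, of which edgeR called 0 and 0 had an unadjusted p under 0.05. Of all tested genes edgeR called 66%. The DESeq2 test called 0 of 9 and limma-voom 0 of 4. CCR2, the receptor of CCL2 and CCL7, had 3.56, 7.65 and 8.08 CPM in WT and 7.86, 11.5 and 11.4 CPM in UA, a log2 fold change of 0.68 (SE 0.36, adjusted p = 0.117 by edgeR). CCR1 had -0.36 (SE 0.35, adjusted p = 0.395 by edgeR), and -0.68 without WT replicate 1 (edgeR adjusted p = 0.032). CCR7 and CCR9 had log2 fold changes of 0.12 and 0.50, and CCR7 changed sign without WT replicate 3 (-0.04). CCR8, the CCL1 receptor, had 0 counts in all WT libraries and 0, 3 and 4 in UA replicates 1 to 3, and CCR4, the CCL22 receptor, had 0, 2 and 0 counts in WT and 22, 2 and 1 in UA. Both were below the filter on low counts of the edgeR test.

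Of 3 tested genes for proteins that bind or trim CC chemokines, 2 fell and 1 rose, where 66% of all tested genes were called. ACKR1, a decoy receptor that binds CCL2, CCL5 and CCL7, had 240.3, 168 and 157 CPM in WT and 2.60, 2.40 and 3.69 CPM in UA, and fell by 6.06 on the log2 scale (SE 0.27, adjusted p = 6.23e-08 by edgeR). DPP4, a protease that clips CCL5 and CCL22 near the amino terminus, had 3.43, 15.3 and 8.67 CPM in WT and 97.5, 101 and 95.7 CPM in UA. It rose by 3.46 on the log2 scale (SE 0.42, adjusted p = 3.64e-05 by edgeR). CCRL2, an atypical receptor, had -1.03 (SE 0.34, adjusted p = 0.0203 by edgeR), a call that was lost in 6 other settings, among them the summed UA libraries (-1.01, edgeR adjusted p = 0.225). ACKR2, a scavenger of inflammatory CC chemokines, had 2, 2 and 0 counts in WT and 11, 7 and 11 in UA and did not pass the filter on low counts. The DESeq2 test, which did test it, called it higher (log2 fold change 3.35, adjusted p = 0.0342), and edgeR without the filter did not (adjusted p = 0.059).

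**Figure D4:**
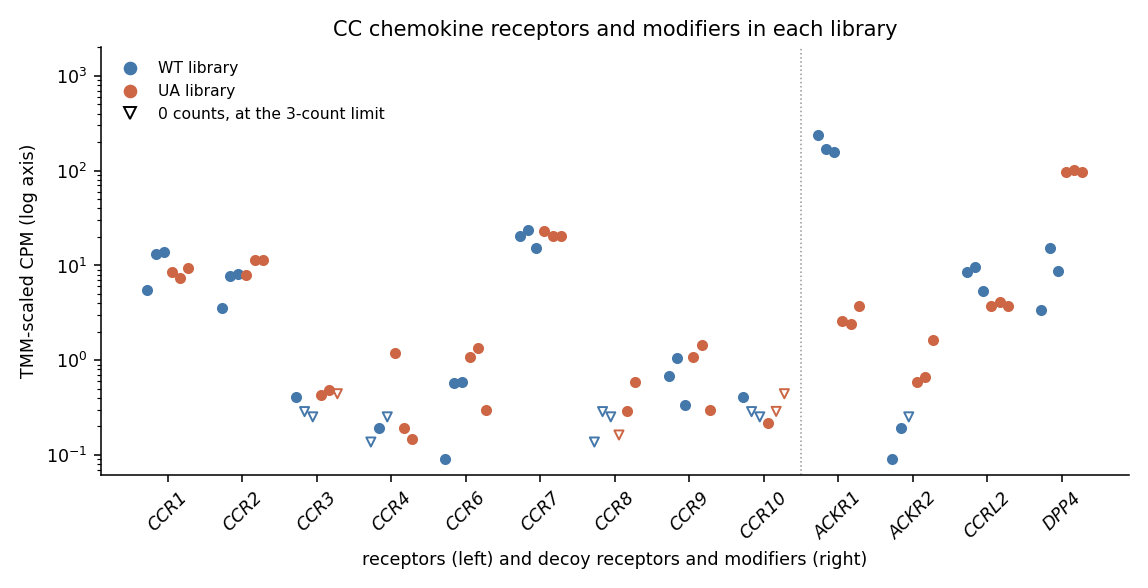
TMM-scaled CPM (log axis) of 9 CC receptors and of 4 decoy receptors and modifiers, 1 point for each library (WT blue, UA orange, open triangle for 0 counts at the CPM of 3 counts). The groups overlap for each of the 4 tested receptors, while ACKR1 is higher in all WT libraries and DPP4 in all UA libraries.

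Of 19 genes that pass on the signal of chemokine receptors, 17 had a row and 16 were tested. Of these 11 were called higher and 5 lower (median 0.69 on the log2 scale), where 66% of all tested genes were called. PREX1 and DOCK2, exchange factors for RAC, rose by 2.81 and 2.19 on the log2 scale, PLCB2, a phospholipase, by 2.36 and GNG2, a G protein subunit, by 3.26 (SE 0.15, 0.24, 0.19 and 0.25, edgeR adjusted p of at most 1.68e-05 each). With the UA libraries summed, 5 were called higher and 3 lower, and without any 1 UA library 8 higher and 4 or 5 lower.

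Transcription of CCL2, CCL20 and CCL22 is known to respond to NF-kB, and the genes of that system went both ways. Over all tested genes, 34.6% were called higher and 31.4% lower. Of 14 tested genes 7 fell and 5 rose (median -0.46 on the log2 scale), and with the UA libraries summed 3 rose and 5 fell. TRAF1, an adaptor of TNF receptors, NFKB2 and RELB, the subunits of the non-canonical branch, and NFKBIE, an inhibitor, were the 4 of smallest p and all fell, with log2 fold changes of -3.82, -2.99, -2.50 and -1.80 (SE 0.20, 0.19, 0.22 and 0.16, edgeR adjusted p of at most 5.12e-06 each). NFKB2 had 117 ± 15.2 CPM in WT and 14.8 ± 1.99 in UA (SD, n = 3 each). The 5 that rose were TNFAIP3, REL, BIRC3, MAP3K14 and RELA. Their log2 fold changes were 2.54, 1.80, 1.38, 0.96 and 0.50 (SE 0.39, 0.18, 0.25, 0.20 and 0.20).

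Among cytokines and receptors that can induce these chemokines, 6 of 14 rose and 4 fell (median 0.51 on the log2 scale). For this list and the next, the share over all tested genes was 34.6% called higher and 31.4% lower. CD40, a receptor on antigen-presenting cells, and IL1A, an alarm cytokine, fell by 4.14 and 3.26 on the log2 scale (SE 0.27 and 0.32), and CSF1, the macrophage growth factor, and TLR4, the lipopolysaccharide receptor, rose by 1.24 and 1.71 (SE 0.14 and 0.26). With the UA libraries summed, 2 rose and 2 fell. In GM-CSF, IL-4 and TSLP signalling, which drives CCL17 and CCL22 in dendritic cells, 5 of 12 rose and 4 fell, with a median of 0.22, and 3 rose and 4 fell with the UA libraries summed. CSF2, which encodes GM-CSF, had 2152, 611 and 884 counts in WT and 4, 1 and 0 in UA. IL2RG and IL7R, cytokine receptor chains, fell by 2.86 and 2.23 on the log2 scale, while IRF4, a transcription factor of dendritic cells, rose by 2.49 (SE 0.15, 0.18 and 0.27).

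**Figure D5:**
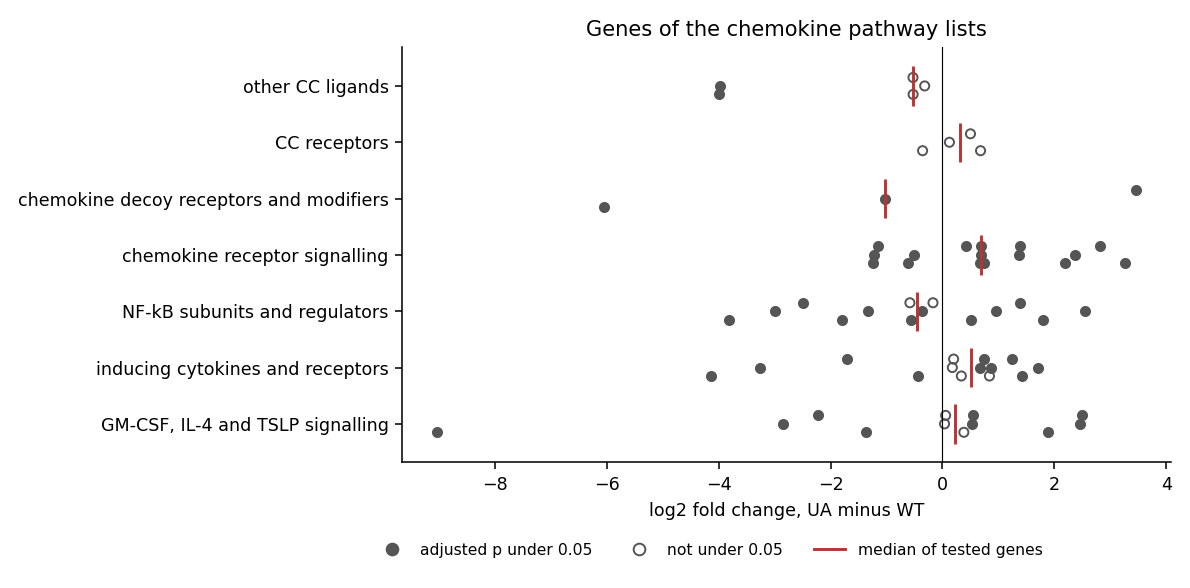
Log2 fold change (UA minus WT) of each tested gene in the 7 pathway lists, filled where the edgeR adjusted p was under 0.05 and open where it was not, with the median of the tested genes as a red line. No CC receptor is filled, and the NF-kB and cytokine lists spread to both sides of 0.

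Cell type markers moved in the same libraries, and their part in the chemokine differences was not tested. For each marker list, the counts stand beside 34.6% of all tested genes called higher and 31.4% called lower. In a bulk library, fewer cells of a type and less RNA per cell cannot be told apart. Of 8 tested markers of monocytes, which make CCL2 and CCL7, 6 rose and 1 fell, and their summed level was 1701 to 2145 CPM in WT and 8115 to 8271 CPM in UA. CD14 led the sum in WT, with 1147 CPM against 21.7 in UA, and LYZ led it in UA, with 7600 CPM against 464 in WT. VCAN had 70.0 CPM in WT and 346 in UA, and CX3CR1 and S100A12 had 0 counts in all WT libraries. Dendritic and Langerhans cell markers, of cells that make CCL22, fell in 7 of 12 and rose in 3, with sums of 774 to 788 CPM in WT and 788 to 806 CPM in UA. The most abundant, CD83, FLT3 and CD1C, were not among those that fell, and CD83 led the sum in both groups. There CD83 had 283 CPM in WT and 383 in UA, FLT3 53.7 and 267, and CD1C 81.8 and 70.9. Of those that fell, CD1B had 84.7 CPM in WT and 2.78 in UA, BATF3 83.0 and 3.63, and LAMP3 37.2 and 1.42. FSCN1 had 28.3 and 15.1, ZBTB46 9.73 and 3.56, and CLEC10A 9.27 and 2.65. CD207, the langerin of Langerhans cells, fell too, with 82.4 CPM in WT and 0.0542 in UA.

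Markers of T and NK cells, a main source of CCL5, fell in 4 of 5 tested genes and rose in 1, with sums of 239 to 295 CPM in WT and 60.1 to 73.9 CPM in UA. By the mean over all 6 libraries GZMB, IL7R and LCK were the most abundant, but the order differed between the groups. GZMB had 118 CPM in WT and 4.92 in UA, IL7R 81.3 and 17.3, LCK 27.1 and 15.8, and NKG7 27.7 and 15.1. Myeloid and progenitor cells can express GZMB and IL7R. CD3E, CD8A, CD8B and KLRD1 had 0 counts in all WT libraries and at most 5 in a UA library. Of the other T cell receptor complex genes, CD3G and CD3D were higher in all UA libraries, while the groups overlapped for CD247. CD3G, which did not pass the filter on low counts, had 2, 0 and 0 counts in WT and 72, 55 and 5 in UA. CD3D had 4.92 CPM in WT and 8.89 in UA. CD247, also below the filter, had 5, 0 and 12 counts in WT and 11, 1 and 0 in UA. Of 10 markers of megakaryocytes and platelets, another source of CCL5, 6 rose and 1 fell, with sums of 431 to 479 CPM in WT and 859 to 877 CPM in UA. TUBB1 had 440 CPM in WT and 203 in UA, PPBP 0.614 and 258, and PF4 0.609 and 204.

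The sums of the other marker lists were higher in UA. Among macrophage markers 7 of 9 tested rose, with sums of 59.0 to 91.1 CPM in WT and 358 to 381 CPM in UA. Neutrophil precursor markers rose in 6 of 9, with sums of 1210 to 1328 CPM in WT and 24376 to 25223 CPM in UA. Of 8 stromal markers 6 rose and 2 fell, with sums of 125 to 142 CPM in WT and 932 to 966 CPM in UA, and endothelial markers rose in 8 of 9, with 89.9 to 136 and 470 to 500 CPM. Of 7 mast cell and basophil markers 5 rose and 1 fell, with 208 to 247 and 308 to 327 CPM, and eosinophil markers rose in 4 of 4, with 11.3 to 19.2 and 1322 to 1435 CPM.

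The genes whose profile over the 6 libraries was most like that of each chemokine were found by the distance between mean-centred log2(CPM + 0.5) values among 9385 genes. For CCL2 these were CD207 (distance 1.41) and CCL1 (1.44), and for CCL1 they were CCL2 (1.44) and CD207 (2.43). GZMB and EBI3 were nearest to CCL7 (0.391 and 0.516), and FCRL3 and NQO1 to CCL22 (0.296 and 0.521). MX2 and CCND1 were nearest to CCL5 (0.548 and 0.615). For CCL20 they were C1GALT1C1L and EAF2 (0.440 and 0.715). The added 0.5 flattens the profile of a gene near 0, so a small distance need not mean a like fold change. CCL22 had means of 2.37 CPM in WT and 0.0492 in UA, and FCRL3 31.25 and 6.12. The 6 libraries fall into the same 2 labelled groups for every gene, so the distances are a description only.

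The authors' deposited table lists other values for these genes than the counts give, and for CCL2 the opposite sign. The counts gave CCL2 a log2 fold change of -8.23 (UA minus WT). In the authors' deposited table CCL2 has a log2 fold change of 3.06 (SE 0.71) and a mean of 200.7 normalized counts, and CCL1 has -4.58 (SE 1.16) and a mean of 8.86. In the count table, the mean over the 6 libraries scaled by DESeq2 size factors was 21020 for CCL2 and 13210 for CCL1. CCL5, CCL22 and CCL20 have log2 fold changes of 5.79, -4.71 and -4.24 in the authors' deposited table, and CCL7 has no row there. Of the 21997 rows of the authors' deposited table, 9874 were tested here and 3503 of these had the same sign, so most did not. Which libraries that table compares was not given in the sources used here, so it was used for names and positions alone.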

How the data were processed

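RNA of single colonies was turned into cDNA with the SMART-Seq V4 kit and into Nextera XT libraries, per the labels' protocols. Neither strand nor molecule is marked, so reads of antisense partners mix and PCR copies count. Of tools and builds, the submitters' processing notes list bcl2fastq and Mmul_8.0.1; aligner and counter were not given in the sources used here. Raw counts per gene were deposited by the authors. Their second table holds, per the file headers, the p-value and its adjusted form, a statistic (score), the log2 fold change and SE, and a mean normalized count (signal).

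Symbols came from row names, the authors' deposited table or a table of gene names, and for CCL21 from the deposited description, a choice made after the data were seen; 18980 of 32386 rows had one. Counts were tested with edgeR 4.0.16 under R 4.3.3, with its quasi-likelihood test (robust=TRUE, TMM factors, label as only term) after filterByExpr (minimum count 10, total 15), with Benjamini-Hochberg adjustment over 13768 genes. The SE is the log2 fold change over the square root of F. The fit was checked on simulated counts of 13768 genes for UA against WT: it recovered 43% of 100 genes changed by 1 and 99% of 100 changed by 2 on the log2 scale, with 6 false among 148 calls. There all genes shared the same dispersion, and the changed genes had more than 10 expected counts in every library. The data differ, with 66% of genes called and WT replicate 1 apart, so these rates may not hold for them or for genes of low count. A count of 0 allows 3 counts, and intervals and such limits cover counting error only.

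The chemokine genes and the 7 pathway and 10 marker lists were chosen with earlier results of these data known. All measured chemokine genes are named, with called CC ligands, receptors and modifiers and up to 4 genes of smallest p in the other pathway lists. Also named are the 3 most abundant markers of the lists described singly, the 2 nearest profiles (mean of at least 5 CPM) and the nearest positioned genes. Further genes are named from the monocyte, dendritic, T cell and NF-kB lists. Alternatives were scaling by upper-quartile factors, by DESeq2 1.42.0 size factors or by library size alone, no filter, a stricter filter (5 CPM in 3 libraries), the DESeq2 test, limma 3.58.1's voom with quality weights, robust=FALSE, a replicate block, an adjusted p under 0.1, each library left out, UA libraries summed and thinning. One CC receptor is not reported here.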

Additional observations from a re-analysis of the deposited data

How the results depend on the processing

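CCL1, CCL2, CCL5, CCL7 and CCL22 kept their direction and their call in every alternative that tested them. For CCL1 the log2 fold change ran from -9.48 to -9.15, for CCL2 from -8.40 to -7.82 and for CCL7 from -5.83 to -5.12. For CCL22 it ran from -8.11 to -5.06, and for CCL5 from 3.46 to 4.98. CCL22 was not tested after thinning or with the stricter filter, nor CCL5 with the latter.

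The CCL20 call was lost with limma-voom (log2 fold change -0.78, adjusted p = 0.0936), library size alone (-1.02, edgeR adjusted p = 0.0745), upper-quartile factors (-1.12, 0.0557), the stricter filter (-1.19, 0.0501), thinning (-1.20, 0.0609) and the UA libraries summed to 1 sample (-1.21, 0.17). Leaving out 1 library gave -1.55 to -0.71 and lost the call without WT replicate 1 or 2 or UA replicate 1 or 2 (edgeR adjusted p = 0.181, 0.0586, 0.0773 and 0.146).

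With the stricter filter 3 of the 4 chemokine genes tested were called: CCL5 and CCL22 did not pass it, and CCL20 passed it but lost its call. With the UA libraries summed, so that all spread comes from WT, 5424 genes were called against 9091, and 5 of the 6 chemokine genes. Where 1 library was left out of a group, the remaining ones shared a spread with the other group. The median log2 fold change of all genes was 0.12 with TMM and 0.28 with library size alone.

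Same-numbered libraries had r = 0.0241, 0.0328 and 0.0162 between their deviations across genes, and the other pairs -0.0233 to 0.00123. All are near 0, but the same-numbered values are the highest, so whether the numbers pair libraries stays undecided. The replicate block called 8939 genes, and CCL20 had -1.16 (edgeR adjusted p = 0.035); 6 of the 6 chemokine genes were called. The low counts of CCL5, CCL7 and CCL22 limit the precision of their fold changes.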
